A study of Mus musculus with 6 samples.

Results

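The interleukin-6 (IL-6) family genes described here are 10 of the 22298 genes of the deposited expression table: the ligand genes Il6, Lif and Osm, the receptor genes Il6ra, Il11ra1, Il6st, Lifr and Osmr, the transcription factor gene Stat3 and the inhibitor gene Socs3. They were picked by gene symbol, through a GRCm38 annotation of the table's Ensembl identifiers, and all 10 were present. Gene coordinates are GRCm38. The poly(A)-enriched RNA libraries came from hearts of wild-type (WT) female mice aged 18 months, 3 after TAC surgery and 3 after sham surgery. TAC usually stands for transverse aortic constriction, in which a narrowed aorta raises the pressure load on the left ventricle. The series title concerns GPR30, Trex1 and neutrophil extracellular traps in heart failure of aged females, and the comparison asked here is how the IL-6 family genes stood in TAC against sham hearts. No transgene or other allele is named in the labels. They do not give the time between surgery and sampling, and do not state that each heart is a separate animal, so p-values cover only the spread among these libraries, which may be technical.

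Cytokines of the IL-6 family act through receptors that share the signalling chain gp130, the product of Il6st. IL-6 and IL-11 first bind their own alpha receptors (Il6ra, Il11ra1), whereas leukemia inhibitory factor (Lif) and oncostatin M (Osm) bring gp130 together with the Lifr or Osmr chain. Janus kinases bound to these chains then activate STAT3, and STAT3 induces Socs3, which binds gp130 and the kinases and ends the signal. In the heart the pathway is known for cardiomyocyte survival, hypertrophy and the response to injury.

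Total estimated counts lay between 19747265 and 27549838 per library. The first principal component of log2 CPM (the count over a library size corrected by the trimmed mean of M-values, TMM) held 57.7% of the variance. It placed TAC replicates 1, 2 and 3 at -1.7, 42.9 and 45.5, and the sham libraries between -32 and -25.2, so that TAC replicate 1 lay nearest to sham. All 10 cardiomyocyte markers were present, at a summed 62525, 54622 and 42610 CPM in TAC replicates 1, 2 and 3 and 60575 to 62454 CPM in sham, and 8 of the 10 were lowest in TAC replicate 3. The 6 atrial markers were also present, at a summed 2685 to 3428 CPM in TAC and 2196 to 3534 CPM in sham. Nppa held most of this, at a mean of 2114 CPM in TAC and 1621 CPM in sham. Of the 6, 2 had a higher mean in TAC (Nppa and Bmp10) and 4 a lower one. Sln was lower without overlap, at 75.2, 57.5 and 37.3 CPM in TAC and 109, 130 and 91.1 CPM in sham. Of 8 skeletal muscle markers Myh4 was at 0 in all 6 libraries, and Myh1 had 3, 3 and 5 counts in TAC and 0 in sham. Tnni2 went the other way, with 20, 7 and 22 counts in TAC and 26, 31 and 23 in sham. The 8 summed to 1764 to 2223 CPM in TAC and 2013 to 2159 CPM in sham. Acta1 and Ckm held most of this, at means of 857 and 1101 CPM in TAC and 375 and 1718 CPM in sham. Myh2, like Myh1 and Myh4, was near 0, with 3, 2 and 0 counts in TAC and 1, 0 and 0 in sham. The sum therefore rests on Acta1 and Ckm and does not by itself show skeletal muscle in these libraries.

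Stretches of the promoter windows of Socs3, Il6 and Lif are printed because they hold a motif of STAT factors or of AP-1 (the Fos and Jun dimer), which are known to regulate cytokine and SOCS genes. RefSeq windows on GRCm38.p6, from 250 bases before to 50 after the start, were found for 9 of the 10 genes, 11 windows in all, and Osm had no entry. Capitals mark the matches, and each stretch is read 5′ to 3′ on the gene's strand and overlaps no annotated exon. The Socs3 stretch covers 200 to 101 bases before the RefSeq start at 117969366 (chr11:117969467-117969566, minus strand), which lies inside the longer GRCm38 gene model given for Socs3, and holds the STAT-type motif TTCNNNGAA. The Il6 stretch (chr5:30012864-30012963, plus strand) and the Lif stretch (chr11:4257318-4257417, plus strand) cover 250 to 151 bases before the start and hold the AP-1-type motif TGANTCA.
Socs3: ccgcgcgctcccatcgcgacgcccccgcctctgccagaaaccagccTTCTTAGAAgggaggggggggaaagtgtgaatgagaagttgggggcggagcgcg
Il6: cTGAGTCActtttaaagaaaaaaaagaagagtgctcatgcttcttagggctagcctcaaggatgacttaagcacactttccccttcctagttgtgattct
Lif: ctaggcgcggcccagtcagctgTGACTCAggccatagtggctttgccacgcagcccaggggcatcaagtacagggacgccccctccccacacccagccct
Each motif reads the same on both strands, and the matches do not overlap each other. TTCNNNGAA was found in 1 of the 11 windows, that of Socs3, and in 8.3% of all 32851 windows. TGANTCA, in which N stands for any base, was found in 3 of the 11, those of Il6, Lif and Osmr, and in 7.81% of all windows. The Osmr match, at positions 4 to 10 from the start, reads TGATTCA, with T where Il6 has G and Lif has C. A match describes letters and is not evidence of binding.

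No IL-6 family gene passed the test across all genes, and the TAC hearts differed widely among themselves. TAC replicate 3 had the highest CPM of all 6 libraries for 5 of the 8 tested genes (Lif, Il6st, Osmr, Stat3 and Socs3) and for both untested ones (Il6 and Osm), where 26.8% of all 13708 tested genes had their highest value in it. Il11ra1 and Lifr had their lowest value there, as did 23.6% of all tested genes. Il6, Osm, Il6ra, Lifr, Osmr, Stat3 and Socs3 were also higher in TAC replicate 2 than in any sham library. In TAC replicate 1 only Il6, Osmr, Il11ra1 and Lifr lay above all sham values. The shared chain Il6st and the receptor Lifr had nearly the same mean in both groups. At an adjusted p under 0.05, 0 of 8 were called higher and 0 lower (edgeR quasi-likelihood test, Benjamini-Hochberg adjustment), where 1.12% of all tested genes were called higher and 0.54% lower. At an unadjusted p under 0.05, 2 of the 8 were higher, Osmr and Socs3, and 0 lower, where 16.3% of all tested genes were higher and 9.26% lower. All TAC values lay above all sham values in 1 of the 8 (Osmr), as in 18.4% of all tested genes, and below them in 0, as in 13.1% of all tested genes. DESeq2's Wald test, which also gave values for Il6 and Osm, called Il6 and Osmr higher, where it called 7.26% of its genes. limma-voom called 0 of 8, where it called 0.7% of all genes higher, and limma-trend on log2(FPKM + 1) called 0 of 7, where it called 0.513% higher. Without TAC replicate 1, edgeR called Il6, Osm, Osmr and Socs3 higher, but it then called 13.2% of all genes higher. FPKM are the authors' values scaled by gene length and library total.

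**Figure D1:**
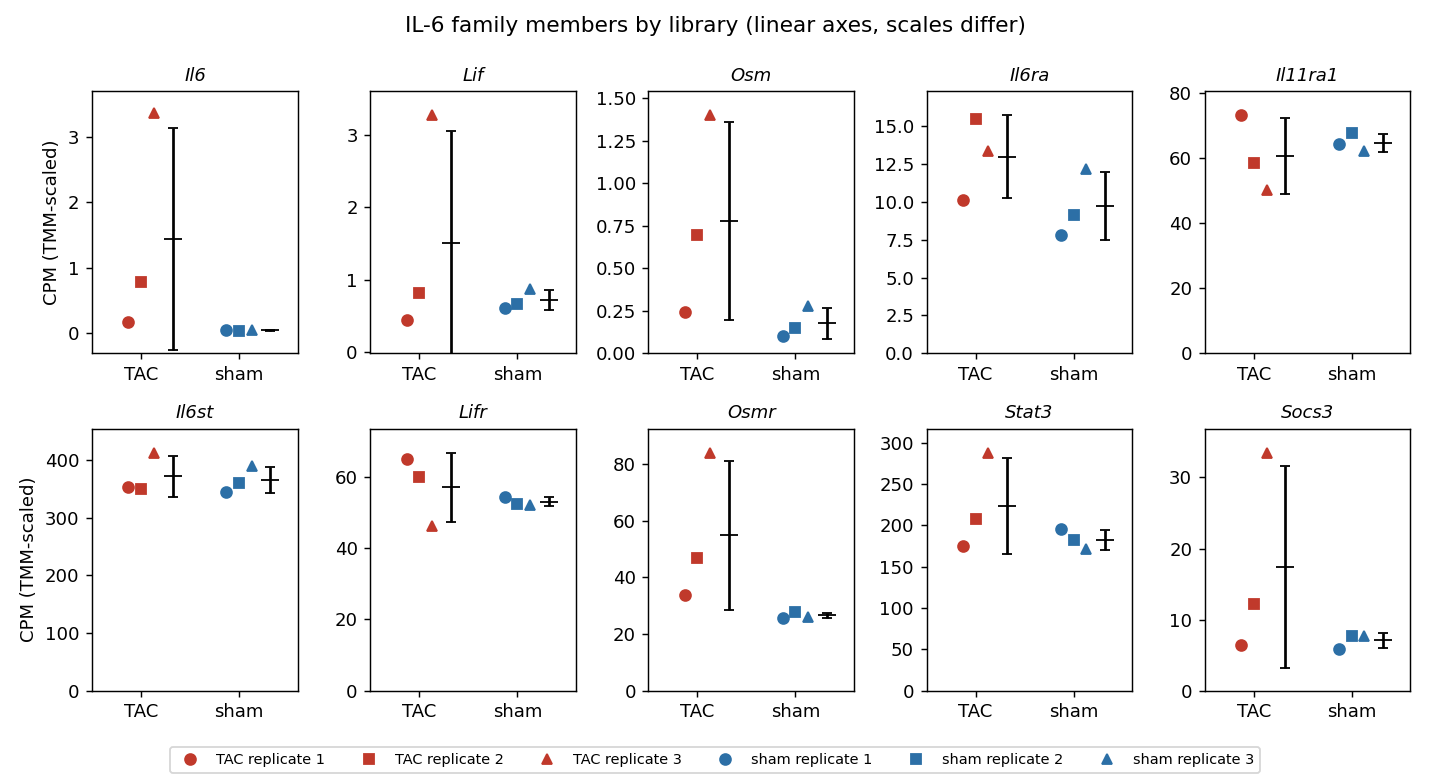
CPM of the 10 IL-6 family genes in each library, with TAC hearts in red and sham hearts in blue, the mean and the SD as black bars beside the points, and a separate linear axis for each gene. In Il6, Lif, Osm, Il6st, Osmr, Stat3 and Socs3 the highest point is TAC replicate 3 (triangle), and only in Il6 and Osmr do all 3 TAC points lie above all 3 sham points.

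Among the ligands, Il6 (ENSMUSG00000025746, chromosome 5, 30013114 to 30019981), the founding cytokine of the family, was nearly undetected in sham hearts. It had 4, 18 and 79 counts in TAC replicates 1, 2 and 3, against 1 count in each sham library. These are 0.163, 0.781 and 3.36 CPM in TAC and 0.0513, 0.0368 and 0.0462 CPM in sham. The groups did not overlap, and TAC replicate 3 alone held most of the counts. Il6 was too low in too many libraries to be kept for the test. Summed over libraries, 101 counts in TAC and 3 in sham gave a ratio of 32.3 per total count (95% interval 10.7 to 159, exact, covering counting error only). The ratio of the mean CPM was 32.1 with all libraries and 10.5 without TAC replicate 3. The exact two-sided permutation test on log2(CPM + 0.5) gave p = 0.1, the smallest value that 3 against 3 allows. DESeq2 gave a log2 fold change of 4.99 (standard error 1.26, adjusted p = 0.00252), and edgeR without the filter on low counts gave 4.83 (standard error 1.16, adjusted p = 0.081).

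Osm (ENSMUSG00000058755, chromosome 11, 4236420 to 4241026), which encodes oncostatin M, a cytokine made mainly by neutrophils, macrophages and activated T cells, was also too low to be tested. It had 6, 16 and 33 counts in TAC replicates 1, 2 and 3, against 2, 4 and 6 counts in sham replicates 1, 2 and 3. In CPM these were 0.244, 0.695 and 1.4 CPM in TAC and 0.103, 0.147 and 0.277 CPM in sham. TAC replicate 1 lay within the sham range and the others above it. The summed counts gave a ratio of 4.39 (95% interval 2.32 to 9.02, counting error only). The ratio of the mean CPM was 4.45 with all libraries and 2.67 without TAC replicate 3. For Osm the exact permutation test, two-sided, returned p = 0.2, and DESeq2 gave an adjusted p = 0.107.

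Lif (ENSMUSG00000034394, chromosome 11, 4257557 to 4272514), the ligand of the Lifr and gp130 pair, was high in a single heart. It had 0.448, 0.825 and 3.27 CPM in TAC replicates 1, 2 and 3, against 0.616, 0.662 and 0.877 CPM in sham replicates 1, 2 and 3. The counts behind these were 11, 19 and 77 in TAC and 12, 18 and 19 in sham. TAC replicate 1 was the lowest of all 6 libraries and replicate 2 lay within the sham range. The log2 fold change of 1.07 (standard error 0.69, edgeR adjusted p = 0.358) became -0.19 (adjusted p = 0.841) without TAC replicate 3.

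Of the 9 other ligand and ligand-subunit genes listed, 5 had enough counts to be tested. Of these 1 was called higher, against 1.12% of all tested genes, 0 were lower and 4 did not pass. At an unadjusted p under 0.05, 1 was higher and 1 lower, against 16.3% and 9.26% of all tested genes. Clcf1, which encodes cardiotrophin-like cytokine, had 0.977, 2 and 4.3 CPM in TAC replicates 1, 2 and 3, against 0.924, 1.43 and 1.66 CPM in sham replicates 1, 2 and 3 (log2 fold change 0.85, standard error 0.53, edgeR adjusted p = 0.34). The first TAC heart overlapped sham. Ctf1, which encodes cardiotrophin-1 and is the most abundant of these 9, had 5.29, 3.17 and 1.36 CPM in TAC replicates 1, 2 and 3, against 4.62, 6.88 and 6.28 CPM in sham replicates 1, 2 and 3, and was lowest in the heart where Lif was highest (log2 fold change -0.86, standard error 0.43, edgeR adjusted p = 0.244). Il11, a ligand known for its effect on fibroblasts, was too low to be tested and was also high in a single heart. It had 1, 1 and 37 counts in TAC and 3, 5 and 2 counts in sham. Cntf went the other way, with 0.855, 1.04 and 0.468 CPM in TAC replicates 1, 2 and 3, against 1.9, 2.06 and 1.06 CPM in sham. The groups did not overlap (log2 fold change -1.08, standard error 0.42, edgeR adjusted p = 0.154). Clcf1, Il11 and Cntf are named for their link to the genes above, after their values were seen.

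**Figure D2:**
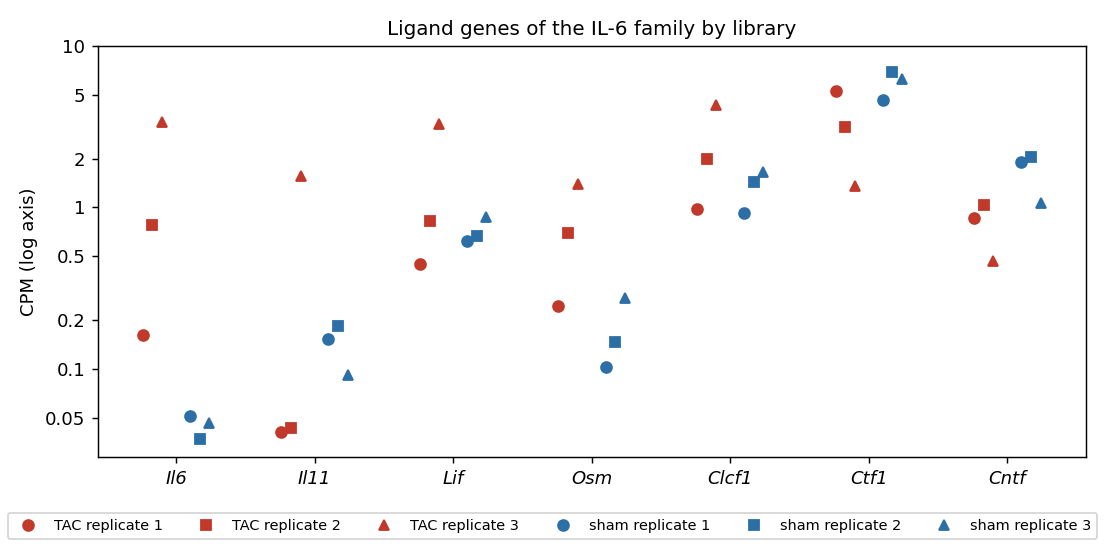
CPM on a log axis of 7 ligand genes of the IL-6 family, with the 3 TAC libraries in red left of the 3 sham libraries in blue. Il6, Il11, Lif, Osm and Clcf1 are highest in TAC replicate 3 (triangles), where Ctf1 and Cntf are lowest.

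Among the receptors, Osmr (ENSMUSG00000022146, chromosome 15, 6813577 to 6874969, minus strand), the chain that gives gp130 its specificity for oncostatin M, came closest to passing. It had 33.6, 46.7 and 84 CPM in TAC replicates 1, 2 and 3, against 25.8, 27.7 and 26.1 CPM in sham replicates 1, 2 and 3. The sham hearts agreed closely (26.5 ± 1.01 CPM, SD, n = 3), and all 3 TAC hearts lay above them, at 1.27, 1.76 and 3.17 times the sham mean. The log2 fold change was 1.05 (standard error 0.30, 95% interval 0.36 to 1.73, edgeR adjusted p = 0.0864). DESeq2 gave an adjusted p of 0.00956, and edgeR 0.0113 once TAC replicate 1 was left out. Without TAC replicate 3 the log2 fold change was 0.58.

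Il6st (ENSMUSG00000021756, chromosome 13, 112464070 to 112510086), the gp130 gene, was the most abundant of the 10 per unit of length. It had 354, 349 and 413 CPM in TAC replicates 1, 2 and 3, against 345, 360 and 390 CPM in sham replicates 1, 2 and 3. The groups overlapped, and the log2 fold change of 0.02 (standard error 0.13, edgeR adjusted p = 0.925) had a 95% interval from -0.28 to 0.33, that is from 0.822 to 1.26 times sham. Lifr (ENSMUSG00000054263, chromosome 15, 7090614 to 7197489), the chain for LIF, had 65, 59.9 and 46.2 CPM in TAC replicates 1, 2 and 3, against 54.4, 52.4 and 52.1 CPM in sham. TAC replicate 3 was the lowest and replicate 1 the highest of the 6 libraries (log2 fold change 0.11, standard error 0.14, 95% interval -0.22 to 0.43, edgeR adjusted p = 0.655).

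The alpha receptors also did not pass. Il6ra (ENSMUSG00000027947, chromosome 3, 89864059 to 89913196, minus strand), the receptor for IL-6 itself, had 10.1, 15.5 and 13.4 CPM in TAC replicates 1, 2 and 3, against 7.85, 9.12 and 12.2 CPM in sham replicates 1, 2 and 3. TAC replicate 1 lay within the sham range (log2 fold change 0.42, standard error 0.22, edgeR adjusted p = 0.267). Il11ra1 (ENSMUSG00000073889, chromosome 4, 41699989 to 41769474), the receptor for IL-11, had 73.1, 58.5 and 50.1 CPM in TAC, against 64.2, 67.5 and 62.1 CPM in sham. It had the only negative log2 fold change of the 8 (-0.09, standard error 0.15, edgeR adjusted p = 0.719). Its counts were fractional in all 6 libraries, so its reads may have been shared with other genes. Its gene model overlaps 6 other genes of the table. Il11ra2, its relative among the listed receptors, also had fractional counts (6.63, 5.14 and 0.29 in TAC, 0.31, 5.9 and 4.13 in sham). Which genes shared reads with Il11ra1 was not tested. Of the other receptor genes, Cntfr and Il27ra, the most abundant of 4 listed, did not pass. Their log2 fold changes were 0.16 for Cntfr (standard error 0.24, edgeR adjusted p = 0.707) and -0.07 for Il27ra (standard error 0.22, edgeR adjusted p = 0.872). DESeq2 called 0 of them and 0 had an unadjusted p under 0.05.

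The order of the receptor levels differed in a single TAC heart. In FPKM, which allows levels of different genes to be compared, Il6st averaged 62 ± 9.11 in TAC and 62.1 ± 5.55 in sham (SD, n = 3 each). Il11ra1 followed at 32.2 ± 4.57 FPKM in TAC and 34.6 ± 0.99 FPKM in sham. Osmr had 5.82, 8.47 and 16.34 FPKM in TAC replicates 1, 2 and 3, against 4.63, 5.07 and 4.89 FPKM in sham. Lifr had 8.49, 8.95 and 7.62 FPKM in TAC and 8.47, 8.21 and 8.06 FPKM in sham. Osmr was thus below Lifr in every library but TAC replicate 3. The ratio of Osmr to Lifr was 0.686, 0.946 and 2.14 in TAC replicates 1, 2 and 3, against 0.547, 0.618 and 0.607 in sham replicates 1, 2 and 3. The groups did not overlap in this ratio, which was formed after the values were seen. Il6ra was the lowest of these 5 receptors, at 2.53 ± 0.557 FPKM in TAC and 1.74 ± 0.559 FPKM in sham.

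Over all 10 genes the order by mean FPKM in TAC was Il6st, Stat3, Il11ra1, Osmr, Lifr, Socs3, Il6ra, Il6, Lif and Osm. The ranges of neighbours in this order overlapped, apart from Stat3 with Il11ra1 and Il11ra1 with Osmr. In sham the order was Il6st, Stat3, Il11ra1, Lifr, Osmr, Socs3, Il6ra, Lif, Osm and Il6. There the ranges of neighbours did not overlap, apart from Socs3 with Il6ra and Osm with Il6. Il6 stood at 1.4 ± 1.66 FPKM in TAC and 0.0367 ± 0.0153 FPKM in sham.

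**Figure D3:**
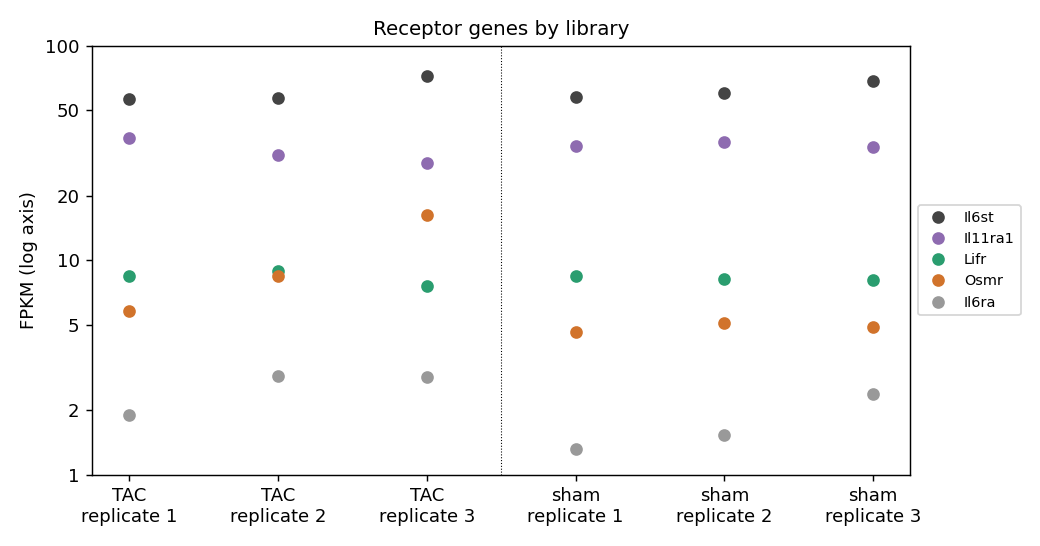
FPKM on a log axis of the 5 receptor genes in the 3 TAC libraries (left) and the 3 sham libraries (right). Osmr is at 16.34 FPKM in TAC replicate 3, above Lifr at 7.62 FPKM, and lies below Lifr in the other 5 libraries, while Il6st lies between 56.29 and 72.51 FPKM.

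Stat3 (ENSMUSG00000004040, chromosome 11, 100885098 to 100939540, minus strand), the transcription factor that gp130 activates, had 175, 208 and 288 CPM in TAC replicates 1, 2 and 3, against 195, 182 and 171 CPM in sham replicates 1, 2 and 3. TAC replicate 1 lay within the sham range and the other TAC hearts above it. The log2 fold change was 0.29 (standard error 0.19, 95% interval -0.14 to 0.73, edgeR adjusted p = 0.358), and 0.06 without TAC replicate 3. Stat3 overlaps Stat5a on the opposite strand, and the library kit is not stated to keep the strand. RNA levels do not measure the phosphorylation through which STAT3 is activated.

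Socs3 (ENSMUSG00000053113, chromosome 11, 117966079 to 117970047, minus strand), the feedback inhibitor induced by STAT3, had 6.47, 12.2 and 33.5 CPM in TAC replicates 1, 2 and 3, against 5.9, 7.69 and 7.67 CPM in sham replicates 1, 2 and 3. TAC replicate 1 was within the sham range, replicate 2 was 1.73 times and replicate 3 was 4.73 times the sham mean. The log2 fold change of 1.29 (standard error 0.52, 95% interval 0.10 to 2.49) had an edgeR adjusted p = 0.168. It became 0.38 without TAC replicate 3 and 1.66 (adjusted p = 0.0246) without TAC replicate 1. In FPKM, Socs3 averaged 7.02 ± 6.09 in TAC and 2.78 ± 0.434 in sham (SD, n = 3 each).

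**Figure D4:**
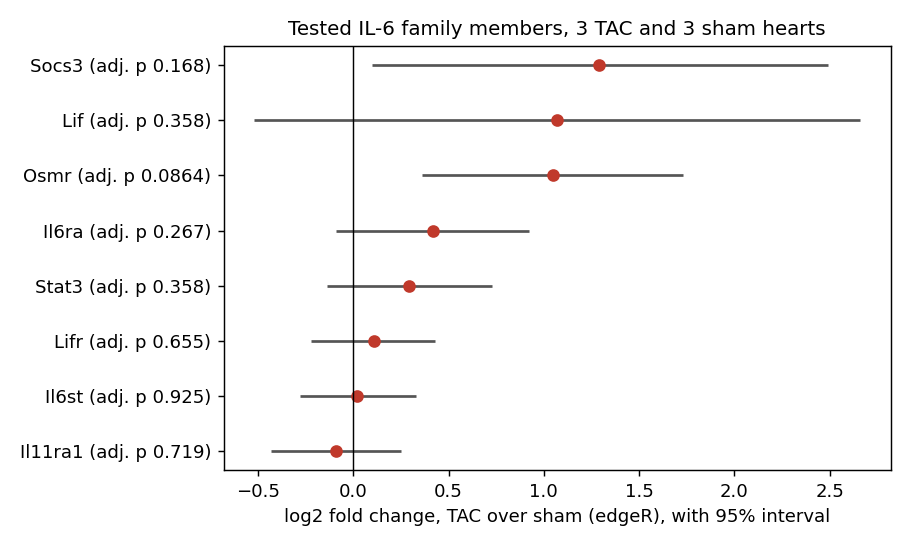
edgeR log2 fold change, TAC over sham, with its 95% interval for the 8 IL-6 family genes that were tested, and the adjusted p over all 13708 genes beside each name. The intervals of Osmr and Socs3 lie above 0, but no adjusted p is under 0.05, and that of Il6st spans -0.28 to 0.33.

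A general list of other Janus kinase, STAT and adaptor genes, not all of them specific to gp130, showed no call in edgeR. Of 14 kinase, STAT and adaptor genes 13 were tested, and 0 were called higher and 0 lower. At an unadjusted p under 0.05, 3 were higher and 3 lower, against 16.3% and 9.26% of all tested genes. The median log2 fold change of the 13 was 0.02, against 0.03 over all tested genes. DESeq2 called 1 higher, the kinase gene Jak2, and 3 lower, the STAT genes Stat5a and Stat5b and the adaptor gene Gab1, where it called 7.26% of its genes higher and 4.06% lower. limma-voom called 0. Jak1, the main kinase of gp130 and the most abundant of the list, had 146, 148 and 168 CPM in TAC, against 157, 171 and 170 CPM in sham (log2 fold change -0.11, standard error 0.12, edgeR adjusted p = 0.584). Stat5b, which acts downstream of growth hormone and other cytokines, had 82.3, 71.4 and 69.8 CPM in TAC, against 94, 101 and 104 CPM in sham, with no overlap (log2 fold change -0.42, standard error 0.11, edgeR adjusted p = 0.0802). Stat5a and Stat5b had fractional counts in every library, for example 617.65 and 2021.35 in TAC replicate 1. Reads may have been shared between these genes, so their values may not be separate measurements.

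Of 16 other genes that limit JAK-STAT signals, 1 was called higher, against 1.12% of all tested genes, 0 were lower and 15 did not pass. Their median log2 fold change was 0.10. At an unadjusted p under 0.05, 5 were higher and 0 lower, against 16.3% and 9.26% of all tested genes. DESeq2 called 3 higher, where it called 7.26% of its genes higher. The gene that edgeR called was Ptprc, which encodes CD45, a phosphatase found on all leukocytes. It had 11.3, 31.7 and 22.6 CPM in TAC, against 6.83, 5.04 and 4.66 CPM in sham (log2 fold change 1.99, standard error 0.35, edgeR adjusted p = 0.041). This call was lost without any 1 of the 6 libraries other than TAC replicate 1, in limma-voom, in the FPKM fits and with the replicate block. Among the relatives of Socs3 none passed: Cish had a log2 fold change of -0.10 (standard error 0.10, edgeR adjusted p = 0.571), Socs1 of 0.01 (standard error 0.30, adjusted p = 0.986) and Socs2 of 0.17 (standard error 0.13, adjusted p = 0.46). Whether they differed from Socs3 was not tested. Socs1 and Socs2 are named as relatives of Socs3, after their values were seen. Ptpn11, the SHP2 phosphatase gene and the most abundant of the list, had 236, 352 and 239 CPM in TAC and 242, 269 and 262 CPM in sham (log2 fold change 0.10, standard error 0.18, edgeR adjusted p = 0.757).

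Of 5 genes of receptor shedding, which releases soluble IL-6 receptor, 0 passed in edgeR, DESeq2 or limma-voom (median log2 fold change 0.27). In edgeR 1 was higher at an unadjusted p under 0.05, against 16.3% of all tested genes. Adam10, which encodes a shedding protease, had a log2 fold change of 0.35 (standard error 0.14, edgeR adjusted p = 0.159). For the inhibitor gene Timp3 it was 0.10 (standard error 0.17, adjusted p = 0.725).

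Genes known to be induced by IL-6 family cytokines or STAT3 had a median log2 fold change of 0.56 over the 31 of 41 that were tested, against 0.03 over all tested genes. Of the 31, 3 were higher, 0 lower and 28 did not pass, where 1.12% of all tested genes were higher. At an unadjusted p under 0.05, 15 were higher, against 16.3% of all tested genes, and 12 had all TAC above all sham values, against 18.4%. Serpina3n, an acute-phase protease inhibitor, had 94.5, 280 and 266 CPM in TAC replicates 1, 2 and 3, against 13.3, 15.1 and 12.3 CPM in sham (log2 fold change 3.97, standard error 0.40, edgeR adjusted p = 0.0062). Every TAC heart was above sham, including replicate 1, in which Socs3 and Stat3 lay within the sham range. Lcn2, an iron-binding acute-phase protein, had 23.9, 66.5 and 97.1 CPM in TAC, against 3.85, 3.2 and 3.32 CPM in sham (log2 fold change 4.18, standard error 0.48, edgeR adjusted p = 0.0122). Cebpd, a transcription factor gene of the acute-phase response, had 45.2, 36.8 and 57.2 CPM in TAC, against 12.8, 22.1 and 17.7 CPM in sham (log2 fold change 1.40, standard error 0.23, edgeR adjusted p = 0.0336). The calls of all 3 were lost without any 1 sham library, those of Lcn2 and Cebpd also without TAC replicate 2, and that of Cebpd without TAC replicate 3 and with the replicate block. Many of these genes also respond to other cytokines, so the list does not measure STAT3 alone.

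TAC replicate 3 had the highest CPM for 19 of the 31 induced genes, where 26.8% of all tested genes had theirs in it. DESeq2 called 11 of the 31 higher, where it called 7.26% of its genes. Of 17 tested immediate early genes, which respond within minutes to many stimuli, 4 were highest in TAC replicate 3 and 11 in TAC replicate 2, where 21.6% of all tested genes were highest. The median log2 fold change of the 17 was 0.84. 0 of the 17 were called by edgeR, where 1.12% of all tested genes were higher, and 8 were higher at an unadjusted p under 0.05, against 16.3% of all tested genes. DESeq2 called 6 of 18 higher, against 7.26% of its genes. The most abundant of them, Dusp1 and Jun, had log2 fold changes of 0.06 (standard error 0.25, edgeR adjusted p = 0.899) and 0.37 (standard error 0.17, adjusted p = 0.22).

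Summed levels of leukocyte markers were also higher in every TAC heart than in every sham heart. The summed level of 10 neutrophil markers was 29.8, 157 and 161 CPM in TAC replicates 1, 2 and 3, and 6.29 to 13.4 CPM in sham, with Ly6g at 0 in sham. edgeR called 3 of 8 tested neutrophil markers higher (S100a8, S100a9 and Mmp8), where 1.12% of all tested genes were higher. DESeq2 called 8, where it called 7.26% of its genes higher. The fit on log2(FPKM + 1) called 2 of 6, where it called 0.513% of its genes higher. limma-voom and edgeR without TAC replicate 3 called 0. The 10 macrophage and monocyte markers summed to 915 to 1366 CPM in TAC and 640 to 762 CPM in sham. edgeR called Cd68, Ccr2 and Mrc1 higher and DESeq2 called 8 of the 10, against 1.12% and 7.26% of their genes. limma-voom and the FPKM fit called 0, and edgeR without TAC replicate 3 called 1. Lymphocyte markers summed to 16.1 to 45.7 CPM in TAC and 8.57 to 11.5 CPM in sham, with 0 of 8 called by edgeR. At an unadjusted p under 0.05, 6 of the 8 were higher, against 16.3% of all tested genes. Fibroblast markers summed to 3115 to 3742 CPM in TAC and 4916 to 5620 CPM in sham, with 0 of 10 called by edgeR. A single gene, Gsn, held a large part of these sums, at a mean of 1261 CPM in TAC and 2739 CPM in sham. All 10 log2 fold changes were negative (median -0.25), but 3 of the 10 markers were highest in TAC replicate 3. Of the 10, 2 were lower at an unadjusted p under 0.05, against 9.26% of all tested genes. DESeq2 called 1 lower, where it called 4.06% of its genes lower. Of 10 endothelial markers edgeR called Tie1 lower and 0 higher, where it called 0.54% of all tested genes lower. DESeq2 called 2 higher and 2 lower, against 7.26% and 4.06% of its genes, and without TAC replicate 3 edgeR called 0. Smooth muscle and pericyte markers summed to 1132 to 1428 CPM in TAC and 1462 to 1726 CPM in sham, with 0 of 10 called by edgeR. At an unadjusted p under 0.05, 5 were lower, against 9.26% of all tested genes. DESeq2 called 3 lower, against 4.06% of its genes. Adipocyte markers summed to 193, 211 and 13.8 CPM in TAC replicates 1, 2 and 3, and to 87.2 to 452 CPM in sham. The part of these cell types, cardiomyocytes included, in the values of Il6, Osm, Osmr and Socs3 was not tested, and in whole tissue a change in the number of cells and in RNA per cell cannot be told apart.

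**Figure D5:**
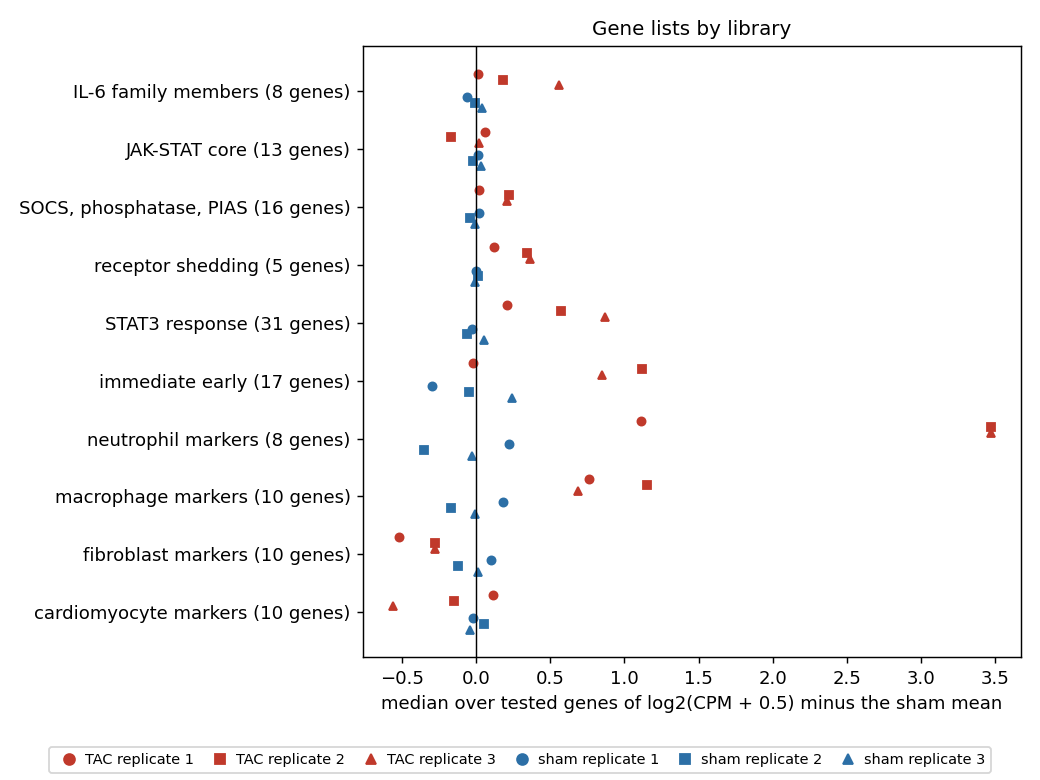
Median, over the tested genes of each list, of log2(CPM + 0.5) relative to the sham mean, for each TAC library (red, upper) and each sham library (blue, lower). The IL-6 family median is 0.01, 0.18 and 0.56 in TAC replicates 1, 2 and 3, and that of the STAT3 response genes is 0.21, 0.57 and 0.87.

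The genes most like Socs3, Osmr and Stat3 across the 6 libraries were sought among 12779 other tested genes of at least 1 CPM. Likeness was the root-mean-square difference in log2(CPM + 0.5) relative to the sham mean. The 5 most like Socs3 differed from it by 0.147 to 0.197 log2 units. They were Rin1 (a Ras effector), Pdpn (the membrane glycoprotein podoplanin), Hbegf (a ligand of the EGF receptor), Flnc (the muscle filamin C) and Uck2 (a uridine-cytidine kinase). Pdpn, for example, had 9.73, 13.1 and 46.9 CPM in TAC replicates 1, 2 and 3, against 8.31, 9.01 and 11.1 CPM in sham. Those most like Osmr were Cd14 (a co-receptor for bacterial lipopolysaccharide), Akap2 (an anchor of protein kinase A), Spcs3 (a signal peptidase subunit), Mcub (a subunit of the mitochondrial calcium uniporter) and Synpo2l (an actin-associated muscle protein). They differed by 0.0733 to 0.101 log2 units. Cd14 had 11.1, 16.8 and 27.5 CPM in TAC, against 8.57, 8.35 and 8.87 CPM in sham. Those most like Stat3 were Tars, Cyfip1, Srsf3, Prkar1a and Gm49336, within 0.0407 to 0.0592 log2 units. None of these 15 genes was called by edgeR, nor were Socs3, Osmr and Stat3, whose values they were picked to match. The lack of calls is therefore not a separate result. The measure is a description over 6 libraries.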

How the data were processed

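Hearts were sampled after TAC or sham surgery, 3 libraries each, grouped and numbered by the sample titles. The labels' protocols give Trizol extraction, oligo(dT) enrichment and the NEBNext Ultra kit. The authors deposited, for each gene and library, an estimated count and an FPKM value, as the file headers show. The submitters' processing notes list StringTie 1.3.1, HISAT2, DESeq2, Bowtie2 2.2.8 and the GRCm38 build, and the tool behind each column is not given. Symbols matched 22255 of the 22298 identifiers.

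Estimated counts were rounded, filtered by filterByExpr (minimum count 10) and tested in R 4.3.3 by the quasi-likelihood test of edgeR 4.0.16 (TMM, glmQLFTest, two-sided, Benjamini-Hochberg over 13708 genes, threshold 0.05). The standard error (SE) is the log2 fold change over the square root of F, and intervals use the fit's degrees of freedom. Alternatives were DESeq2 1.42.0, limma 3.58.1 and those named in the closing section. Replicate pairs differed by more than counting error (chi-square over its degrees of freedom, 78.2 to 100 in TAC and 11.7 to 18.1 in sham). The edgeR and limma-trend fits were tested on simulated data. All members are reported. Named from each pathway list are up to 6 called genes and, with fewer than 3 called, the 2 of highest mean CPM. 1 gene of the ligand list is counted but not reported here. The members and lists were chosen with earlier results of these data known.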

Additional observations from a re-analysis of the deposited data

How the results depend on the processing

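The count of called IL-6 family genes was 0 higher and 0 lower with TMM, DESeq2 size factors, upper-quartile factors, limma-voom, both FPKM fits, no filter on low counts and the replicate block. It was 2 higher with DESeq2's Wald test, 1 higher (Osmr) at an adjusted p under 0.10, and 0 to 4 higher when 1 library was left out, the 4 being Il6, Osm, Osmr and Socs3 without TAC replicate 1. The share of all tested genes passing at 0.10 was not counted, so the Osmr call at that threshold has no background beside it. Of 88 tested genes in the other pathway lists edgeR called 5 higher and 0 lower. DESeq2 called 22 and 3, limma-voom and the fits on log2(FPKM + 1) and log2(FPKM + 0.1) called 3 higher each, and the replicate block 2. With 1 library left out, 0 to 38 were higher and 0 to 4 lower, with the most calls when TAC replicate 1 was absent, 1 higher when TAC replicate 2 was, and 0 when any sham library was. These last fits also have fewer samples; otherwise the cause was not tested. Over all genes, edgeR called 153 higher and 74 lower, DESeq2 1063 and 594, limma-voom 96 and 75, the FPKM fit with a pseudocount of 1 59 and 66, and the replicate block 48 and 26, and leaving out 1 library gave 4 to 1837 higher and 8 to 1392 lower. Same-numbered libraries did not deviate together (correlations of -0.0283, -0.0989 and -0.0347), so the block rests on a number only.

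Some signs turned, all in genes that were not called. With 1 library left out, the log2 fold change of Lif lay between -0.19 (no TAC replicate 3) and 1.48, that of Il11ra1 between -0.26 and 0.0115 (no TAC replicate 3), and that of Lifr between -0.00892 (no TAC replicate 1) and 0.22. Il6st was -0.00358 with upper-quartile factors, -0.00138 with DESeq2, -0.00918 and -0.00939 in the FPKM fits with pseudocounts of 1 and 0.1, and between -0.07 and 0.07 with 1 library left out, being -0.0377 without sham replicate 1 and -0.00742 without sham replicate 2. The counts of Il6 and Osm limit their values, since 1 to 6 counts lie behind each sham library.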
